A study of Mus musculus with 39 samples.

Results

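Col19a1 encodes the alpha chain of type XIX collagen, a rare collagen of basement membrane zones. It was chosen after its level had been seen to fall in 3 treatments known only by a code, so its own differences from saline are given here as a description and without a test. It is 1 of 52636 genes counted in each library and 1 of 19246 genes that passed the filter on low counts. The series measured polyadenylated RNA from mouse brain in 39 libraries after injection of saline or of antisense oligonucleotides (ASOs), synthetic strands built to bind 1 RNA by base pairing and so lower its level. The oligonucleotides are described as directed at Tmem106b, the gene of a lysosomal membrane protein.

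The groups were the coded treatments RTR59155 (5 libraries), RTR113841 (3), RTR113643 (5) and RTR113609 (4), the numbered oligonucleotides ASO 1 (3), ASO 2 (5), ASO 3 (4) and ASO 4 (5), and saline (5). ASO 1 to ASO 4 also carry the codes RTR114030, RTR113622, RTR113656 and RTR113792. The labels name no target for the coded treatments, and the sources used here give no strain, genotype, age, sex, dose, time after treatment or dissected brain region. Each library held between 19.7 and 44.2 M counts (M for mega), with group ranges of 32.6 to 35.7 M in RTR59155 and 31.1 to 35.8 M in saline. The transcript of the hypothalamic peptide gene Pmch exceeded 5 CPM (counts per M counts of its library) in 11 libraries, namely 2 of RTR59155, 1 of RTR113643, 2 of ASO 1, 1 of ASO 2, 3 of ASO 3, 2 of ASO 4 and none of RTR113841, RTR113609 or saline. These 11 libraries are called the high-Pmch libraries. No pair of libraries of a group agreed within sampling noise.

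Collagens are secreted trimers whose chains wind around each other through repeats of 3 residues that begin with glycine. Type XIX collagen belongs to the fibril-associated collagens with interrupted triple helices (FACIT), which join other matrix proteins and do not form fibrils alone. In the mouse brain Col19a1 is made by neurons, many of them inhibitory interneurons of cortex and hippocampus, and the collagen is needed there for the formation of inhibitory nerve terminals.

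The gene (ENSMUSG00000026141) lies on chromosome 1, from 24261890 to 24587472 on the minus strand of GRCm38, a span of 325.6 kb. Only 2.57% of the genes tested have a longer span, and the median span is 18.6 kb. Its coding sequence has 1137 codons, of which 265 (23.3%) are GGN, the glycine codons with any base N at the end, against a median of 6.29% over 15072 genes. In 11 stretches, at least 5 codons in a row stand 3 codons apart as GGN, and together these stretches hold 225 triplets. A stretch of 10 triplets, codons 833 to 862, is shown because it makes the collagen repeat visible, with the GGN codons in capitals. It is copied from the GENCODE M21 transcript on GRCm38.
Col19a1: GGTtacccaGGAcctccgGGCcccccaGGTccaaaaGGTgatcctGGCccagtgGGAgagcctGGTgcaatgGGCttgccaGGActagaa

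The sources used here give no oligonucleotide sequence. The longest run of letters that the spliced transcripts of Col19a1 and Tmem106b have in common was 12 bases, and it occurred at 2 places. Each is shown with 6 bases on either side, the common run in capitals, since a sequence shared with the target is what a reader would look for first. In the first pair the run lies in the coding sequence of Col19a1 (chromosome 1) and in the 3′ UTR of Tmem106b (chromosome 6).
Col19a1: gagcagTTTATATAAAATccaggg
Tmem106b: aagattTTTATATAAAATtactga
In the second pair it lies in the 3′ UTR of both.
Col19a1: tgagatTGAAGTAGTACAttactg
Tmem106b: gtcaaaTGAAGTAGTACAgattaa
Of 15417 genes compared with Tmem106b in the same way, 75.4% shared a run at least as long, and the median was 12 bases. A run of this length is thus at the level of most genes, and these letters say nothing about what any oligonucleotide pairs with.

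Col19a1 was lowest in RTR59155, where its level was 36.6% of saline. Levels are CPM scaled between libraries by the trimmed mean of M values (TMM). The 5 RTR59155 libraries had 1.66, 1.86, 1.501, 1.69 and 2.01 CPM, against 4.87, 4.14, 5.22, 5.37 and 4.23 CPM in the 5 saline libraries. The highest RTR59155 library lay below the lowest saline library by more than the whole range within RTR59155. These values rest on 51 to 71 counts per library in RTR59155 and 135 to 173 in saline. Means were 1.74 ± 0.193 CPM (SD, n = 5) in RTR59155 and 4.76 ± 0.561 CPM (SD, n = 5) in saline. The fitted log2 fold change was -1.45 (SE 0.12, 95% interval -1.70 to -1.20).

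The 3 RTR113841 libraries had 2.82, 1.90 and 2.06 CPM, and the 5 RTR113643 libraries had 2.04, 2.16, 2.84, 2.48 and 3.33 CPM. Both groups lay wholly below saline and overlapped with each other. RTR113841 averaged 2.26 ± 0.490 CPM (SD, n = 3), 47.5% of saline, with a log2 fold change of -1.07 (SE 0.14, 95% interval -1.35 to -0.78). RTR113643 averaged 2.57 ± 0.527 CPM (SD, n = 5), 53.9% of saline, with a log2 fold change of -0.89 (SE 0.12, 95% interval -1.13 to -0.65). In bulk tissue, fewer Col19a1-expressing cells and less Col19a1 RNA per cell cannot be told apart.

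In the fourth coded treatment, RTR113609, the libraries had 3.13, 3.96, 3.55 and 3.73 CPM, also below every saline library. The mean was 3.59 ± 0.352 CPM (SD, n = 4), 75.4% of saline, and the log2 fold change was -0.41 (SE 0.12, 95% interval -0.66 to -0.16). Other genes are called where the adjusted p of edgeR's quasi-likelihood test over all genes tested was under 0.05, and no call is given for Col19a1, since it was picked on these comparisons. Of all genes tested, 0.608% were called in RTR59155, 0.0935% in RTR113841, 0.483% in RTR113643 and 6.72% in RTR113609, and 0.229%, 0.0727%, 1.91% and 0.0156% in ASO 1 to ASO 4. Single libraries moved these numbers: the 117 calls in RTR59155 became 74 without saline replicate 1, the 18 in RTR113841 became 9 without its replicate 1, and the 93 in RTR113643 became 38 without its replicate 2. The 44 in ASO 1 became 20 and 142 without its replicates 1 and 3, the 14 in ASO 2 became 5 without its replicate 2, and the 367 in ASO 3 became 115 and 660 without its replicates 1 and 3.

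**Figure D1:**
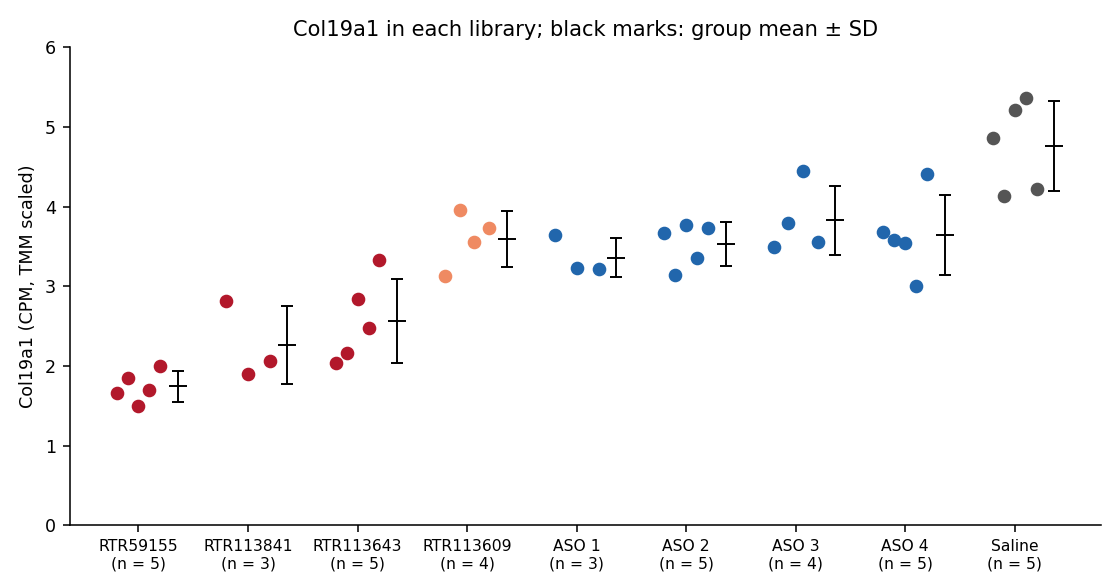
Col19a1 level in CPM (TMM scaled, linear axis from 0) for each of the 39 libraries, by group, with the group mean ± SD in black beside the points. The RTR59155 libraries sit between 1.501 and 2.01 CPM, the lowest of all groups, and the saline libraries between 4.14 and 5.37 CPM.

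The numbered ASOs were close to each other and to RTR113609. ASO 1 had 3.64, 3.23 and 3.21 CPM, and ASO 2 had 3.67, 3.14, 3.78, 3.36 and 3.73 CPM, all below the saline libraries. ASO 3 had 3.50, 3.80, 4.45 and 3.56 CPM, and ASO 4 had 3.68, 3.58, 3.54, 3.00 and 4.42 CPM. In each of these last groups 1 library, ASO 3 replicate 3 and ASO 4 replicate 5, lay inside the saline range. The library with 3.00 CPM, ASO 4 replicate 4, is the one with the smallest total, and its value rests on 59 counts. Group means were 3.36 ± 0.243 (n = 3), 3.53 ± 0.274 (n = 5), 3.83 ± 0.432 (n = 4) and 3.64 ± 0.506 CPM (n = 5) for ASO 1 to ASO 4 (SD), or 70.6, 74.2, 80.3 and 76.5% of saline.

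Log2 fold changes against saline were -0.50 for ASO 1 (95% interval -0.77 to -0.23), -0.43 for ASO 2 (-0.66 to -0.20), -0.32 for ASO 3 (-0.56 to -0.08) and -0.37 for ASO 4 (-0.61 to -0.14). Unlike the others, the ASO 3 value moved by more than the spread between libraries with another setting. It was -0.10 (SE 0.19) without the high-Pmch libraries, which leaves 1 ASO 3 library. It was -0.15 (SE 0.13) with the mean levels of striatum and hypothalamus markers as covariates.

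From low to high the groups ran RTR59155, RTR113841, RTR113643, ASO 1, ASO 2, RTR113609, ASO 4, ASO 3 and saline. The ranges of every pair of neighbours in this order overlapped. The intervals of mean ± SD overlapped for all neighbours except RTR113643 and ASO 1, so the widest step inside the treated groups lay between these. Between libraries of a group the coefficient of variation was 7.22 to 21.7%, where counting alone gives 8.03 to 13.0%. RTR113841 and RTR113643 were at 21.7 and 20.5%, against a counting error of 11.3 and 11%. ASO 4 (13.9 against 9.57%), ASO 3 (11.3 against 8.44%), RTR113609 (9.79 against 9.26%) and saline (11.8 against 8.03%) were also above it. RTR59155 (11.1 against 13%), ASO 1 (7.22 against 9.16%) and ASO 2 (7.77 against 9.21%) were below it.

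Tmem106b, the target, and Nrxn3, the gene of a presynaptic adhesion protein that fell in several treatments, were set beside Col19a1. Nrxn3 was picked with its falls known, so its changes against saline, and any adjusted p given with them, are a description only. In RTR59155, ASO 1 and saline, Tmem106b averaged 57.9 ± 11.9, 53.3 ± 9.14 and 191.9 ± 15.6 CPM (SD, n = 5, 3 and 5). Nrxn3 averaged 86.0 ± 11.2, 85.5 ± 3.43 and 209.5 ± 10.3 CPM in the same groups. The log2 fold changes of RTR59155 and ASO 1 against saline were thus close for Tmem106b (-1.73 and -1.85) and for Nrxn3 (-1.28 and -1.29). Both Tmem106b changes passed the threshold, with adjusted p of at most 4.78e-10. For Col19a1 the log2 fold changes were -1.45 and -0.50, given as a description.

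The estimates for RTR59155, RTR113841 and RTR113643 followed 1 order in the 3 genes. They were -1.73, -1.38 and -0.98 for Tmem106b, -1.28, -1.21 and -0.996 for Nrxn3, and -1.45, -1.07 and -0.89 for Col19a1. Libraries of neighbouring groups in this order overlapped for each gene, and the order was not tested. For Nrxn3, RTR113841 (87.26 to 93.4 CPM) lay inside the range of RTR59155 (76.58 to 104.2 CPM). Across the other treatments the order differed between the genes. RTR113643 and ASO 2 had similar losses of Tmem106b (-0.98 and -1.10) and of Nrxn3 (-0.996 and -1.02), while Col19a1 stood at -0.89 and -0.43. ASO 3 lowered Tmem106b by 1.33 on the log2 scale (adjusted p = 3.14e-08), but its Nrxn3 change of -0.19 (adjusted p = 0.136) and that of ASO 4, -0.13 (adjusted p = 0.558), did not pass. The ASO 3 change of Nrxn3 passed when only the 2 groups were fitted (adjusted p = 0.0157). RTR113609 had a log2 fold change of -1.49 for Tmem106b (adjusted p = 5.88e-10) and of -0.77 for Nrxn3, with Col19a1 at 75.4% of saline. These comparisons share the saline libraries, so no correlation between them is given.

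**Figure D2:**
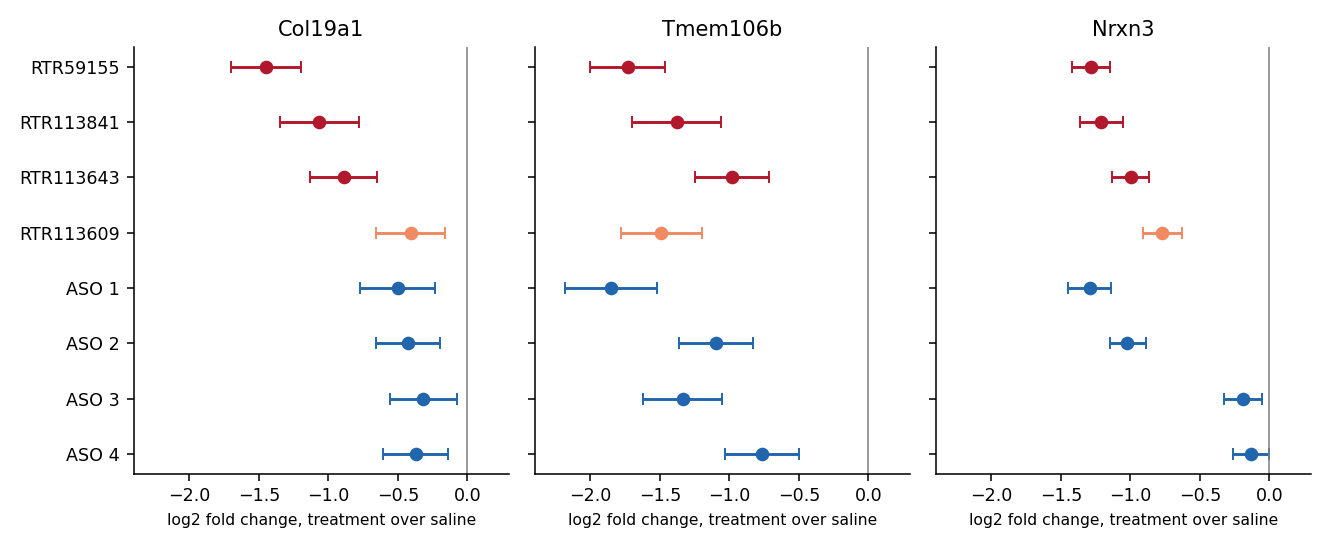
Log2 fold change over saline with its 95% interval for Col19a1, Tmem106b and Nrxn3 (panels) in each of the 8 treatments (rows). Col19a1 is lowest in RTR59155, RTR113841 and RTR113643, while ASO 1, with -1.85 for Tmem106b and -1.29 for Nrxn3, has -0.50 for Col19a1.

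Whether Col19a1 went with these genes among libraries given the same treatment was tested after subtracting each group's mean from the log2 CPM values. Groups of 3 to 5 libraries are too small for a correlation of their own, so the differences of all 39 libraries were pooled, and p-values came from 100000 permutations within groups (two-sided). Pearson's r of Col19a1 with Tmem106b was 0.26 (permutation p = 0.154) and Spearman's rho was 0.24 (permutation p = 0.165). Without the 2 libraries farthest from the median of Tmem106b, RTR113643 replicate 2 and RTR59155 replicate 5, r was 0.14. With Nrxn3, r was 0.23 (permutation p = 0.239) and rho 0.13 (permutation p = 0.488), and r was 0.07 without the same 2 libraries. In a family of 13 such relations the adjusted p-values were 0.305 and 0.306 for Tmem106b and 0.305 and 0.529 for Nrxn3 (r and rho), so no relation within groups was detectable at this number of libraries.

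One of the 13 relations passed. Col19a1 was lower in those libraries of a group that had more of 10 thalamus markers, with r = -0.51 (permutation p = 0.00202, adjusted 0.0263) and rho = -0.50 (permutation p = 0.00221, adjusted 0.0287). It was -0.41 without the 2 farthest libraries, ASO 4 replicate 4 and ASO 3 replicate 3. Without the high-Pmch libraries, 26 libraries in groups of at least 2 remained, and r was -0.61 with an adjusted permutation p of 0.0812. For the hypothalamus list r was -0.43 (permutation p = 0.0123, adjusted 0.0798). The other 9 relations, with library total, striatum, cortical layer, hippocampus, inhibitory neuron, fibroblast, vessel and mitochondrial transcripts, had adjusted permutation p-values of at least 0.258 for r.

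**Figure D3:**
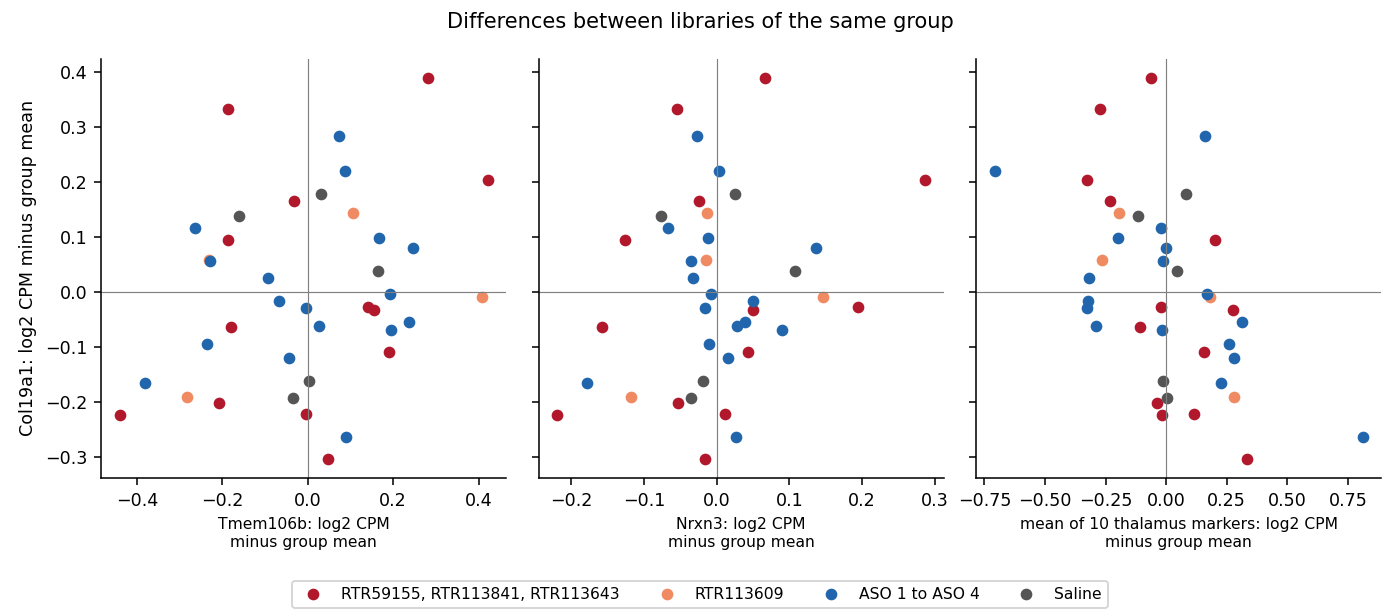
Each point is 1 of 39 libraries, with its log2 CPM minus its group's mean for Col19a1 (vertical) against the same for Tmem106b, Nrxn3 and the mean of 10 thalamus markers (horizontal). The first 2 panels show no clear slope (r = 0.26 and 0.23), and the thalamus panel slopes downward (r = -0.51).

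The thalamus markers had mostly higher values, none past the threshold, in the treatments where Col19a1 was lowest. Of the 10, all had a log2 fold change above 0 in RTR59155 and RTR113841, and 8 did in RTR113643. This was not particular to them. All 10 were above 0 in ASO 1, ASO 3 and ASO 4 too, where Col19a1 was higher. The list medians there, 0.33, 0.57 and 0.44, were larger. In RTR113609 and ASO 2, 8 of the 10 were below 0. With edgeR, none of 10 passed in RTR59155, RTR113841 or RTR113643 (1, 0 and 2 at an unadjusted p under 0.05; none with DESeq2 or limma voom), and the list medians were 0.23, 0.25 and 0.16 on the log2 scale. Here and below, counts at an unadjusted p under 0.05 stand without the share of all genes at that cut, so they are a description only. Summed over the list, levels were 620.1 to 814.5 CPM in RTR59155, 624.8 to 768.4 in RTR113841, 602.8 to 835.8 in RTR113643 and 586.3 to 662.8 CPM in saline. These ranges overlap. The list sum reached 951.1 CPM in ASO 3 (median change 0.57) and 1155 CPM in ASO 4 (median 0.44). In ASO 4 replicate 4, which had the lowest Col19a1 level of its group, the mean log2 level of the list was 0.81 above that of the group. In ASO 3, where 1.91% of all genes tested were called, 2 of the 10 rose, Rora (0.39, adjusted p = 0.0383) and Ntng1 (0.64, adjusted p = 0.048). A fit with the mean of the thalamus list as a covariate was added after seeing these data. In it the Col19a1 log2 fold changes were -1.37 in RTR59155, -0.997 in RTR113841, -0.85 in RTR113643 and -0.47 in RTR113609. For ASO 1 to ASO 4 they were -0.39, -0.48, -0.16 and -0.27, against -0.32 for ASO 3 without the covariate.

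Of the other 43 collagen genes, all tested, none passed with edgeR in RTR59155, RTR113841 or RTR113643 (1, 2 and 6 at an unadjusted p under 0.05). With 0.608, 0.0935 and 0.483% of all genes called there, a count of 0 in 43 is at the background share. DESeq2 called none, none and 1, and limma voom none, none and 2. These were Col20a1, higher in RTR113643 (0.65 with DESeq2, adjusted p = 0.0371), and, with limma voom only, Col2a1, lower there (-0.74, adjusted p = 0.0442). The median log2 fold changes of the 43 genes were 0.02, 0.02 and -0.10, beside 0.00 for all genes tested in each. None of the 43 was called in ASO 1 to ASO 4 either (4, 5, 4 and 3 at an unadjusted p under 0.05); DESeq2 called none and limma voom 1 each in ASO 2 and ASO 3.

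Of the 8 other FACIT genes, 3 had a higher level than Col19a1 in saline and 5 a lower one. Per gene length, Col19a1 had 0.937 ± 0.108 RPKM (SD, n = 5) in saline, rank 22 of 44 collagens, where Col6a1 was first with 14.5 ± 2.65 RPKM. Among the FACIT genes, saline levels ran from 0.168 RPKM for Col9a1 through 0.707 for Col12a1 to 8.24 for Col9a3, a chain of the type IX collagen of cartilage and eye. None of the 8 passed in any of the 8 comparisons with edgeR, where 1 in RTR113643, 3 in RTR113609 and 1 in ASO 1 had an unadjusted p under 0.05. Of all genes tested, 0.0156 to 6.72% were called with edgeR in these comparisons. At such shares few or no calls would be found in 8 genes, so their absence says little about FACIT genes. DESeq2 and limma voom each called 1, Col20a1 in RTR113643. Their log2 fold changes lay between -0.16 and 0.23 in RTR59155 and between -0.07 and 0.35 in RTR113841. In RTR113643 they lay between -0.26 and 0.65, with Col20a1 at the upper end (edgeR adjusted p = 0.101). Col9a1, a neighbour of Col19a1 on the chromosome, had 0.705 ± 0.145 CPM (SD, n = 5) in RTR59155 and 0.790 ± 0.212 CPM (SD, n = 5) in saline.

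RTR113609, where 6.72% of all genes tested passed, differed in its collagens. There 6 of the 43 fell and none rose, beside 4.36% lower and 2.36% higher among all genes tested, with a median of -0.17 against 0.00 for all genes tested. Col13a1, a transmembrane collagen, had 0.731 ± 0.141 CPM (SD, n = 4) in RTR113609 and 1.44 ± 0.299 CPM (SD, n = 5) in saline (-0.99, SE 0.21, adjusted p = 0.00123). Col15a1, of vessel basement membranes, had 6.57 ± 0.963 and 9.76 ± 1.18 CPM in RTR113609 and saline (-0.57, adjusted p = 0.000865). The basement membrane chains Col4a5 (-0.59) and Col4a6 (-0.52), the fibrillar Col5a2 (-0.69) and the neuronal transmembrane Col25a1 (-0.44, 42.2 ± 5.75 against 57.3 ± 4.98 CPM) completed the set, with adjusted p of at most 0.021. Col4a6 and Col25a1 overlapped with saline, and Col4a6 did not pass when only the 2 groups were fitted.

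**Figure D4:**
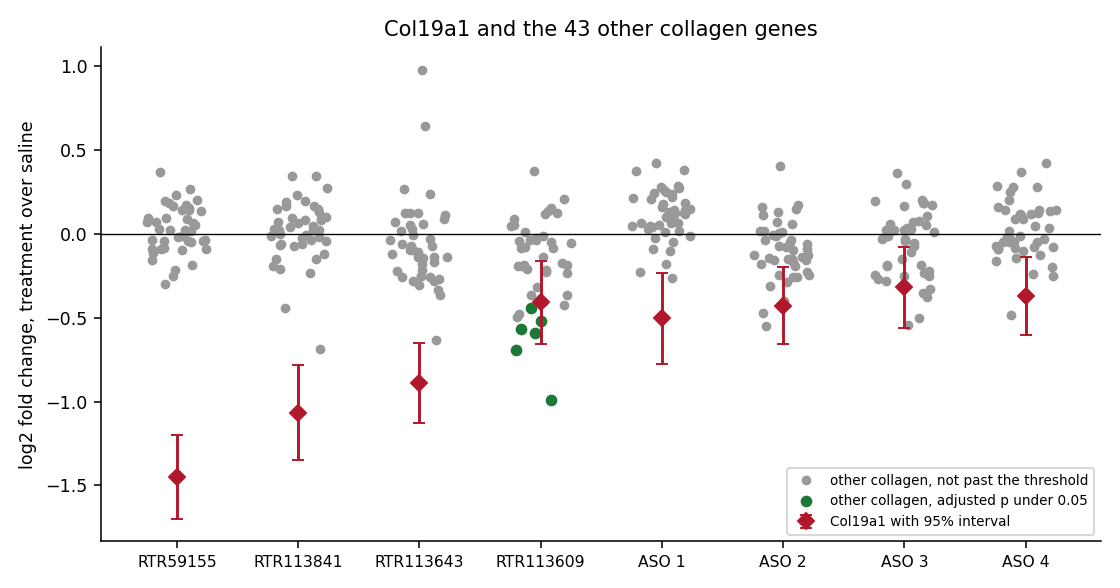
Log2 fold change over saline for the 43 other collagen genes (dots, green where the adjusted p was under 0.05) and for Col19a1 (diamond with 95% interval) in each treatment. Col19a1 lies below all other collagens in RTR59155, RTR113841 and RTR113643, and in RTR113609 the 6 collagens that fell lie below it.

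Genes that make, modify and receive collagens were mostly not called beside Col19a1. Of 30 collagen-processing genes (prolyl and lysyl hydroxylases, chaperones, propeptide proteases and lysyl oxidases) 1 passed in the 3 treatments, P3h4, which takes part in collagen lysine hydroxylation. It fell in RTR113643 to 13.9 ± 0.857 CPM, against 16.9 ± 1.18 CPM in saline (SD, n = 5 each; -0.28, SE 0.07, adjusted p = 0.0414). It no longer passed without the high-Pmch libraries or with 2 groups only (adjusted p = 0.0527 and 0.0595), nor in 9 of 10 fits that left out 1 library (up to 0.235, without RTR113643 replicate 2). Of 13 collagen receptor genes tested none passed there with edgeR, DESeq2 or limma voom (0, 3 and 1 with edgeR at an unadjusted p under 0.05 in RTR59155, RTR113841 and RTR113643). Of all genes tested, 0.608, 0.0935 and 0.483% were called in these treatments. At such shares few or no calls would be found in most lists of 30 or 13 genes, so these counts say little about collagen genes.

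The neurons and matrix in which Col19a1 is expressed were looked at through marker lists. Of 15 inhibitory neuron genes and 14 perineuronal net genes, the lattice around many interneurons, none passed in RTR59155, RTR113841 or RTR113643 by any of the 3 tools. With edgeR, 0.608, 0.0935 and 0.483% of all genes tested were called there. At such shares few or no calls would be found in most lists of 15 or 14 genes, so their absence says little about these lists. At an unadjusted p under 0.05 in edgeR, 5, 4 and 4 of the inhibitory neuron genes and 3, 1 and 4 of the net genes were counted. In RTR113609 and ASO 1 to ASO 4 the counts were 7, 4, 2, 5 and 4 for inhibitory neuron genes. For net genes they were 6, 1, 2, 1 and 2. The share of all genes at that cut is not given here. The list medians were -0.07, -0.09 and -0.07 for the inhibitory neuron genes. Below 0 were 10, 10 and 11 of these 15, and 12, 10, 6, 8 and 11 in RTR113609 and ASO 1 to ASO 4. Their summed level was 2207 to 2480 CPM in RTR59155, 2211 to 2325 CPM in RTR113841 and 2269 to 2398 CPM in RTR113643, against 2384 to 2499 CPM in saline. RTR113841 lay wholly below saline, while RTR59155 and RTR113643 overlapped with it. RTR113609 (2243 to 2339 CPM), ASO 1 (2155 to 2374), ASO 3 (2256 to 2375) and ASO 4 (2206 to 2363) also lay wholly below saline. ASO 2 (2310 to 2582 CPM) overlapped with it. The part of this list in the Col19a1 differences was not tested. In RTR113609, where Col19a1 was at 75.4% of saline and 4.36% of all genes tested fell, 6 of the 15 inhibitory neuron genes fell, led by Erbb4, a neuregulin receptor (-0.69, SE 0.08, adjusted p = 1.29e-07), and Nxph1 (-0.47, adjusted p = 4.93e-06). Of the 14 net genes, 4 fell there. The net proteoglycan genes Vcan (-0.35) and Bcan (-0.27), the receptor gene Ptprz1 (-0.39) and Hapln4 (-0.26) had adjusted p of at most 0.00155.

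Over all lists outside the collagens, 218 of 222 genes were tested. In RTR59155 4 rose and 2 fell, in RTR113841 none passed (24 at an unadjusted p under 0.05; none with DESeq2, 1 with limma voom), and in RTR113643 1 rose and 3 fell. The share of all genes at that unadjusted cut is not given here, so the 24 cannot be read as an excess or a lack. Of all genes tested, 0.109% rose and 0.499% fell in RTR59155, 0.0935% were called in RTR113841, and 0.0779% rose and 0.405% fell in RTR113643. The rises in RTR59155 were all microglial: the complement genes C1qa, C1qb and C1qc and the adaptor gene Tyrobp. C1qb, the lead gene, had 140.5 ± 19.7 CPM in RTR59155 and 91.3 ± 14.4 CPM in saline (SD, n = 5 each; 0.62, adjusted p = 0.0159). C1qa (0.62), C1qc (0.63) and Tyrobp (0.64) had adjusted p from 0.037 to 0.0475, and none of these 3 passed without the high-Pmch libraries. The rise in RTR113643 was that of C1qb (adjusted p = 0.0367). None of these microglial calls held in every fit that left out 1 library. C1qa, C1qc and Tyrobp were lost in 8 of 10 fits each, C1qb in 5 of 10 for RTR59155 (adjusted p up to 0.0882, without RTR59155 replicate 2) and in 7 of 10 for RTR113643 (up to 0.224, without RTR113643 replicate 2). Microglial genes were also called in other treatments. In RTR113609, where 2.36% of all genes tested rose, C1qa (0.71), C1qb (0.57), C1qc (0.57) and Tmem119 (0.29) rose. Their adjusted p was at most 0.024. In ASO 3, where 1.91% of all genes tested were called, Tyrobp (0.67, adjusted p = 0.027) and C1qb (0.57, adjusted p = 0.0308) rose. In ASO 1, C1qa (0.66) and Tyrobp (0.69) did not pass (adjusted p = 0.0996 for each).

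Mal, a myelin proteolipid gene, fell in RTR59155, RTR113643, RTR113609 and ASO 3, and so did not keep to the treatments where Col19a1 was lowest. Its largest fall was in ASO 3 (-0.59, adjusted p = 2.48e-06), and in RTR113609 it was -0.30 (adjusted p = 0.00828). It had 267.7 ± 13.2 CPM in RTR59155, 303.9 ± 50.4 CPM in RTR113643 and 386.5 ± 23.9 CPM in saline (SD, n = 5 each). The log2 fold changes in RTR59155 and RTR113643 were -0.53 (adjusted p = 6.26e-06) and -0.35 (adjusted p = 0.00969), and the second did not pass when only the 2 groups were fitted (adjusted p = 0.0786) or without RTR113643 replicate 2 or 4 (0.0828 and 0.0553). Among neuronal markers, the deep-layer gene Hs3st4 fell in RTR59155 (-0.20, adjusted p = 0.0498) and the cadherin gene Cdh13 in RTR113643 (-0.22, adjusted p = 0.0478). The Hs3st4 call was lost in 7 of 10 fits that left out 1 library (adjusted p up to 0.243, without RTR59155 replicate 1), and the Cdh13 call in 9 of 10 (up to 0.29, without RTR113643 replicate 2). Both genes fell further in RTR113609, where 4.36% of all genes tested fell. There Hs3st4 was at -0.38 (adjusted p = 3.62e-06) and Cdh13 at -0.42 (adjusted p = 1.4e-06). Whether these glial or neuronal differences bear on Col19a1 was not tested.

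The genes next to Col19a1 on chromosome 1 were not called in any comparison. The 5 tested genes on one side, Smap1, Sdhaf4, Fam135a, Gm37580 and Col9a1, and the 5 on the other, Tubb4b-ps2, Gm28439, Gm10222, Gm28438 and Gm28437, passed in none of the 8 comparisons by edgeR, DESeq2 or limma voom. With edgeR, 0.0156 to 6.72% of all genes tested were called in these comparisons. At such shares few or no calls would be found in 10 genes, so their absence says little about the genes around Col19a1. At an unadjusted p under 0.05, edgeR counted 1 of these 10 in ASO 2 and none elsewhere. The second side holds pseudogenes, whose reads can be exchanged with near-identical copies, so their values are uncertain. Fam135a, for example, had 26.4 ± 1.90 CPM in RTR59155 and 26.8 ± 0.840 CPM in saline (SD, n = 5 each; -0.03, SE 0.05). Because of the pseudogenes, the next protein-coding genes on that side were added after their types were seen. Lmbrd1, a lysosomal cobalamin exporter gene, passed nowhere. Adgrb3, an adhesion receptor gene at chromosome 1, 25067476 to 25829707, with a span of 762.2 kb, fell in RTR59155 to 87.9 ± 5.93 CPM, against 102.6 ± 4.25 CPM in saline (SD, n = 5 each; -0.22, adjusted p = 0.00554). It also fell in RTR113609 (-0.16, adjusted p = 0.0325). In RTR113841 (-0.12), RTR113643 (-0.13) and ASO 1 (-0.15) every library lay below saline as well, but Adgrb3 did not pass (adjusted p = 0.645, 0.181 and 0.201). In ASO 2, ASO 3 and ASO 4 it overlapped with saline.

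The genes whose levels over the 39 libraries were most like those of Col19a1 were sought among 13554 genes with a mean of at least 1 CPM. Likeness was Pearson's r of log2 CPM, a description in which libraries share treatments, so no p is given. The 10 highest were Abl1 (0.81), a tyrosine kinase gene, Mvb12b (0.79), of endosomal sorting, Nudcd1 (0.79), Pank2 (0.78), a coenzyme A synthesis gene, Cntln (0.75), Pibf1 (0.75), Nrxn3 (0.72), Efna5 (0.72), an axon guidance ligand gene, Slc35f4 (0.71) and Arhgap23 (0.71). They were chosen for their pattern, so their changes are described only.

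Abl1 had 46.7 ± 2.70 CPM in RTR59155, 59.0 ± 3.23 CPM in ASO 1 and 79.6 ± 2.06 CPM in saline (SD, n = 5, 3 and 5). In RTR113609, ASO 3 and ASO 4 its log2 fold change was -0.01, 0.01 and 0.01, where that of Col19a1 was -0.41, -0.32 and -0.37. Nudcd1 had 7.19 ± 0.871 CPM in RTR59155 and 9.94 ± 1.20 CPM in ASO 4, against 16.4 ± 1.17 CPM in saline (SD, n = 5 each). Its fold change of -0.72 in ASO 4 went beyond that of Col19a1 there, and in RTR113609 it was 0.05. All 10 genes had a log2 fold change below 0 in RTR59155, RTR113841 and RTR113643, as the way they were chosen favours, and the genes parted in the other treatments. After subtracting group means, r with Col19a1 was between -0.13 and 0.44 for the 10.

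All 10 genes had a span above the 18.6 kb median of the genes tested, from 36.7 kb for Pank2 to 1612 kb for Nrxn3, with a median of 156.6 kb. The 18.6 kb is over all genes tested, predicted genes and pseudogenes included. The 10 were drawn from 13554 genes that leave these out. The median span of those 13554 is not given here, so the 10 were not compared with their own pool. Tmem106b itself spans 19.5 kb. The lowest r values belonged to Erbb3 (-0.61), a neuregulin receptor gene of glia, Dnajc19 (-0.58), Gpr84 (-0.53), a receptor gene of activated microglia, Urm1 (-0.53) and Thoc6 (-0.51), with spans of 2.38 to 25.3 kb. Among libraries of a group, high r after subtracting group means were those of Higd1b (0.64), a pericyte gene, Mitf (0.63), Podn (0.61) and Itga8 (0.60), an integrin gene. They too were picked for high values among 13554 genes, so they are described only. None of these 4 was among the 10 genes most alike over all libraries, and their r over the 9 group means lay between -0.25 and 0.11.

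**Figure D5:**
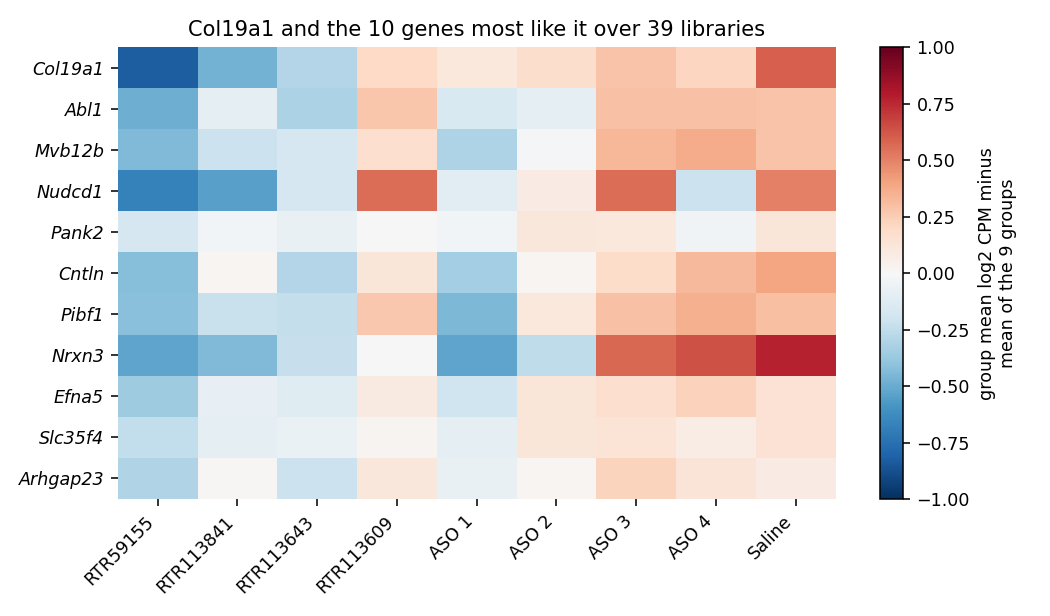
Group mean of log2 CPM minus the mean of the 9 group means, in colour from -1 to 1, for Col19a1 and the 10 genes most like it (rows) in the 8 treatments and saline (columns). Rows share low values in RTR59155 and part in ASO 1, ASO 3, ASO 4 and RTR113609, where Col19a1 stays between 0.11 and 0.29.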

How the data were processed

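Polyadenylated RNA of mouse brain was sequenced from TruSeq Stranded mRNA libraries, per the labels. Per the submitters' processing notes, GSNAP and GRCm38 were used; versions, counting tool, annotation, strand setting and read filters: not given in the sources used here. The deposited files give whole-number counts, the gene width and RPKM for 52636 Ensembl genes. Counts were analysed; deposited RPKM served to compare levels between genes. Counts summed to 34.0 ± 3.90 M per library (SD, n = 39), 86.1 to 88.2% of the total behind the RPKM. Genes were kept by filterByExpr, scaled by TMM and tested with edgeR 4.0.16 under R 4.3.3 (quasi-likelihood, 1 fit of 9 groups, two-sided), with Benjamini-Hochberg adjustment over 19246 genes; an adjusted p without another name comes from this test. SE is the log2 fold change divided by the square root of F. Alternatives were DESeq2 1.42.0, limma voom 3.58.1 with quality weights, median-of-ratios scaling, no filter, 2 groups only, striatum and hypothalamus covariates, a thalamus covariate (chosen after seeing the data), fits without high-Pmch libraries, and leaving out each library; limma and DESeq2 ran on the same counts. The edgeR script was tested on simulated data. Log2 CPM used a prior count of 2. Positions (for 19217 of 19246 tested genes) and the longest protein-coding transcripts, where a gene had one, came from GENCODE M21. Col19a1, Tmem106b, Nrxn3, FACIT genes, 5 tested neighbours a side, the 10 most alike, 5 most opposite and 5 most alike within groups, and up to 4 list members called in RTR59155, RTR113841 or RTR113643 were named by rule; other genes were named after their values were seen. One gene that the rule names is not reported here. The gene, lists and rules were chosen with earlier results of these data known. Nothing in the labels ties a library to an animal of its own, so the p-values cover only the spread between these samples, which may be technical.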

Additional observations from a re-analysis of the deposited data

Results flagged for a closer look

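For Col19a1, Tmem106b and the 10 genes most like Col19a1 over the 39 libraries, Nrxn3 among them, 84 sets of 4 or 5 libraries were checked for a library far from the rest of its group, and 5 stood apart. Chance flags about 1 in 20 such sets, so 5 of 84 is near that share. Nudcd1 had 15.4 CPM in RTR113609 replicate 2, where the other 3 libraries had 17.3 to 17.6 CPM. Efna5 had 16.5 CPM in RTR59155 replicate 2, against 18.0 to 18.5 CPM in the other 4, and 30.3 CPM in ASO 4 replicate 4, against 25.6 to 26.4 CPM in the other 4. Slc35f4 had 12 CPM in ASO 2 replicate 2, with 13.9 to 14.6 CPM in the other 4, and 12.6 CPM in ASO 3 replicate 4, with 14.3 to 14.5 CPM in the other 3. No library stood apart in this way for Col19a1 itself.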

How the results depend on the processing

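Every Col19a1 log2 fold change stayed below 0 under the 8 alternatives, 1 of them, the thalamus list mean as a covariate, chosen after seeing the data, and with each library left out. From RTR59155 to ASO 4, in the order RTR59155, RTR113841, RTR113643, RTR113609, ASO 1, ASO 2, ASO 3 and ASO 4, leaving out 1 library gave -1.51 to -1.40, -1.26 to -0.95, -1.01 to -0.82, -0.46 to -0.34, -0.57 to -0.46, -0.47 to -0.38, -0.40 to -0.27 and -0.45 to -0.32. The ASO 3 value was -0.15 with the striatum and hypothalamus covariates and -0.10 without the high-Pmch libraries, and the cause was not tested.

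The counts of other collagens called were 0 except for 6 in RTR113609, where 5 to 6 were called with 1 library left out. DESeq2 called 1 in RTR113643, and so did the fit with the thalamus covariate. Limma voom called 2 in RTR113643, 1 in ASO 2 and 1 in ASO 3. In ASO 3, 1 was called with no filter and 3 with only the 2 groups compared, namely Col6a1 (-0.50), Col6a2 (-0.27) and Col5a1 (-0.28).

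Of the 218 genes of the other lists, 6, 0, 4, 35, 1, 1, 16 and 0 were called in the same order. DESeq2 called 7 in RTR113643, 2 in ASO 1 and 6 in ASO 2. Limma voom called 1 in RTR113841, 9 in RTR113643, 6 in ASO 2, 37 in ASO 3 and 1 in ASO 4. With no filter 9 were called in RTR113643, 6 in ASO 1, 5 in ASO 2, 31 in ASO 3 and 1 in ASO 4. With the thalamus covariate the counts were 1 in RTR113841, 12 in RTR113643, 0 in ASO 1, 5 in ASO 3 and 1 in ASO 4. With the striatum and hypothalamus covariates they were 9 in RTR113643, 0 in ASO 1 and 6 in ASO 3. Without the high-Pmch libraries they were 2 in RTR59155, 0 in ASO 1 and ASO 2, and 2 in ASO 3, where ASO 1 and ASO 3 keep 1 library each, assumed to vary like the other groups, so these counts of ASO 1 and ASO 3 say little. With 2 groups only they were 2 in ASO 1, 9 in ASO 2 and 33 in ASO 3. Leaving out 1 library gave 1 to 6, 0, 0 to 5, 23 to 33, 0 to 3, 0 to 1, 4 to 36 and 0 in the same order. The lowest count was that without saline replicate 1 in RTR59155 and without RTR113643 replicate 2 in RTR113643, and the ASO 3 extremes were those without its replicates 1 and 3. Over all genes tested the alternatives gave 62 to 176 calls in RTR59155 (117 in the fit of all groups), 12 to 33 in RTR113841 (18), 90 to 309 in RTR113643 (93), 1100 to 1748 in RTR113609 (1294), 10 to 124 in ASO 1 (44), 8 to 269 in ASO 2 (14), 27 to 934 in ASO 3 (367) and 2 to 8 in ASO 4 (3). Leaving out 1 library gave 74 to 162, 9 to 19, 38 to 116, 917 to 1330, 20 to 142, 5 to 24, 115 to 660 and 3 to 5 in the same order.

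The relation with the thalamus list was -0.61 (adjusted permutation p = 0.0812) without the high-Pmch libraries, a fit of 26 libraries. Depth limits the Col19a1 values: 51 to 71 counts in an RTR59155 library give a counting error of 13.0% of the mean. No paired analysis was possible because the labels give no replicate numbers, and the numbers used here follow the order of the samples.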
